A study of Rattus norvegicus with 6 samples.

Results

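The focal adhesion, Z-disc and LIM genes described here were the 58 genes, of 14607 listed, whose symbols belong to the alpha-actinins, filamins, PDZ-LIM, FHL, CSRP, synaptopodin, xin, nexilin, palladin and myotilin, talin, vinculin, kindlin, ILK, PINCH, parvin, paxillin, FAK, tensin, zyxin, ajuba, VASP, testin, LIM kinase and GRIP families, or to the LIM proteins Lima1 and Limd2. The rule reads the symbol and no measured value, but its families were chosen with earlier results of these data known. Symbols of the same families without a row (Csrp3, Xirp2, Parvg and Tns4) were not analysed here. Grip1 and Grip2, PDZ scaffolds first known from glutamate receptor trafficking, were taken in by their symbols although they are not classical adhesion proteins.

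Focal adhesions tie integrins, the receptors for the extracellular matrix, to actin filaments. Talin and kindlins bind the integrin tail, vinculin and the ILK-PINCH-parvin complex link it to actin, and paxillin, FAK, tensins and the zyxin family carry signals that respond to tension. Z-discs of striated muscle, and the dense bodies and dense plaques that are their counterparts in smooth muscle, are held together by alpha-actinin and filamin, to which many PDZ-LIM, LIM-only, synaptopodin and palladin proteins dock.

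Messenger RNA was sequenced from vascular smooth muscle cells (VSMCs, 3 samples) and mid-capillary pericytes (mcPCs, 3 samples), the mural cells of arterioles and of capillaries, both freshly isolated from the brain cortex of male Sprague-Dawley rats aged 4 to 5 weeks. The tissue was digested with Liberase DL and passed through a filter. VSMCs came from arterioles held back on it, which alone were digested again with Liberase TM and trypsin. Their cells were freed of CD31+ and CD11b+ cells and then captured by a fluorescent lectin. The mcPCs were what remained of the filtrate once CD31+, CD11b+, GLAST+ and O4+ cells had been removed. Preparation thus differed along with cell type, and its part in the differences was not tested. Tissue of several rats was pooled in each of 3 isolations. RNA integrity numbers ran from 6.40 to 8.50 over the samples.

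The values available were 1 mean per gene and cell type, so that neither the values of single samples nor their spread can be shown, and no test between cell types was run. Abundance is given as TPM, a gene's share of all transcripts scaled to the same total in each sample, which allows genes to be compared with each other because it is corrected for length. Differences between cell types are given as the log2 ratio of the mean normalized count in mcPCs over that in VSMCs, negative where VSMCs had more. The intervals in brackets are 95% exact intervals (Clopper-Pearson) on the reads of the gene and cover counting error only, not the differences between isolations, and reads copied by PCR are not independent molecules. Reads assigned to genes averaged 62.0 M (M, 1e6 reads) in a VSMC library and 48.0 M in a mcPC library. The smooth muscle markers Acta2, Myh11, Tagln and Cnn1 were all lower in mcPCs (median log2 ratio -8.11), the general mural markers Cspg4, Rgs5 and Pdgfrb lay at -0.19, -0.06 and 1.17, and 5 of 5 capillary pericyte markers were at least 4-fold higher in mcPCs. Transcripts of 19 listed erythrocyte genes took 54.9% of the mcPC TPM and 0.736% of the VSMC TPM, so a TPM level in mcPCs is lowered for every other gene.

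Most of the 58 genes were more abundant in VSMCs, and the split within the group was wide. By mean normalized counts 27 of the 58 (46.6%) were at least 2-fold lower in mcPCs, against 13.9% of all genes listed, and 20 (34.5%) were at least 4-fold lower, against 5.72%. In the other direction 8 (13.8%) were at least 2-fold higher in mcPCs, against 22.0% of all genes, and 6 (10.3%) at least 4-fold higher, against 12.4%. The same shares of all genes apply to the counts by role below. The remaining 23 lay within 2-fold, 14 of them below and 9 above equality. The median log2 ratio of the members was -0.71 (quartiles -3.50 and 0.33), against 0.01 over all genes (quartiles -0.54 and 0.82). In these bulk samples a smaller share of cells that express a gene and less RNA per cell cannot be told apart. These counts depend on the scaling. With counts scaled to the same total 36 members were at least 2-fold and 24 at least 4-fold lower, and 7 and 5 higher. The median of all genes was -0.55 with that scaling, and the shares of all genes were not computed. On the ratio of mean TPM with a pseudocount of 0.1 the split was 45 lower and 3 higher, but there 72.3% of all genes were at least 2-fold lower and 7.00% higher, so the lower share was near the background. The median of all genes is -1.72 on that scale, in which erythrocyte transcripts hold 54.9% of the mcPC total. Taken relative to the median gene, the TPM ratios again put 27 members at least 2-fold lower. The share of all genes on that scale was not computed.

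The group was abundant in VSMCs. Its median level was 87.4 TPM there and 6.43 TPM in mcPCs, against 12.7 and 3.59 TPM over all genes, and 52 of the 58 reached 0.8 TPM in VSMCs. In VSMCs 25 members exceeded 100 TPM. Of those, 17 were at least 2-fold lower in mcPCs, 8 lay within 2-fold and 0 were higher. Among all 1537 genes above 100 TPM in VSMCs 33.4% were at least 2-fold lower. In mcPCs only Actn4 exceeded 100 TPM. Summed over members, TPM came to 15249 in VSMCs (1.53% of all TPM) and 954 in mcPCs (0.0957%), or to 1.54% and 0.212% once the erythrocyte genes were left out of the total. Csrp1, Flna, Actn4 and Tns1 together held 54.5% of the members' TPM in VSMCs, whereas in mcPCs the leading 4, Actn4, Tns2, Ilk and Fermt2, held 37.4%.

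**Figure D1:**
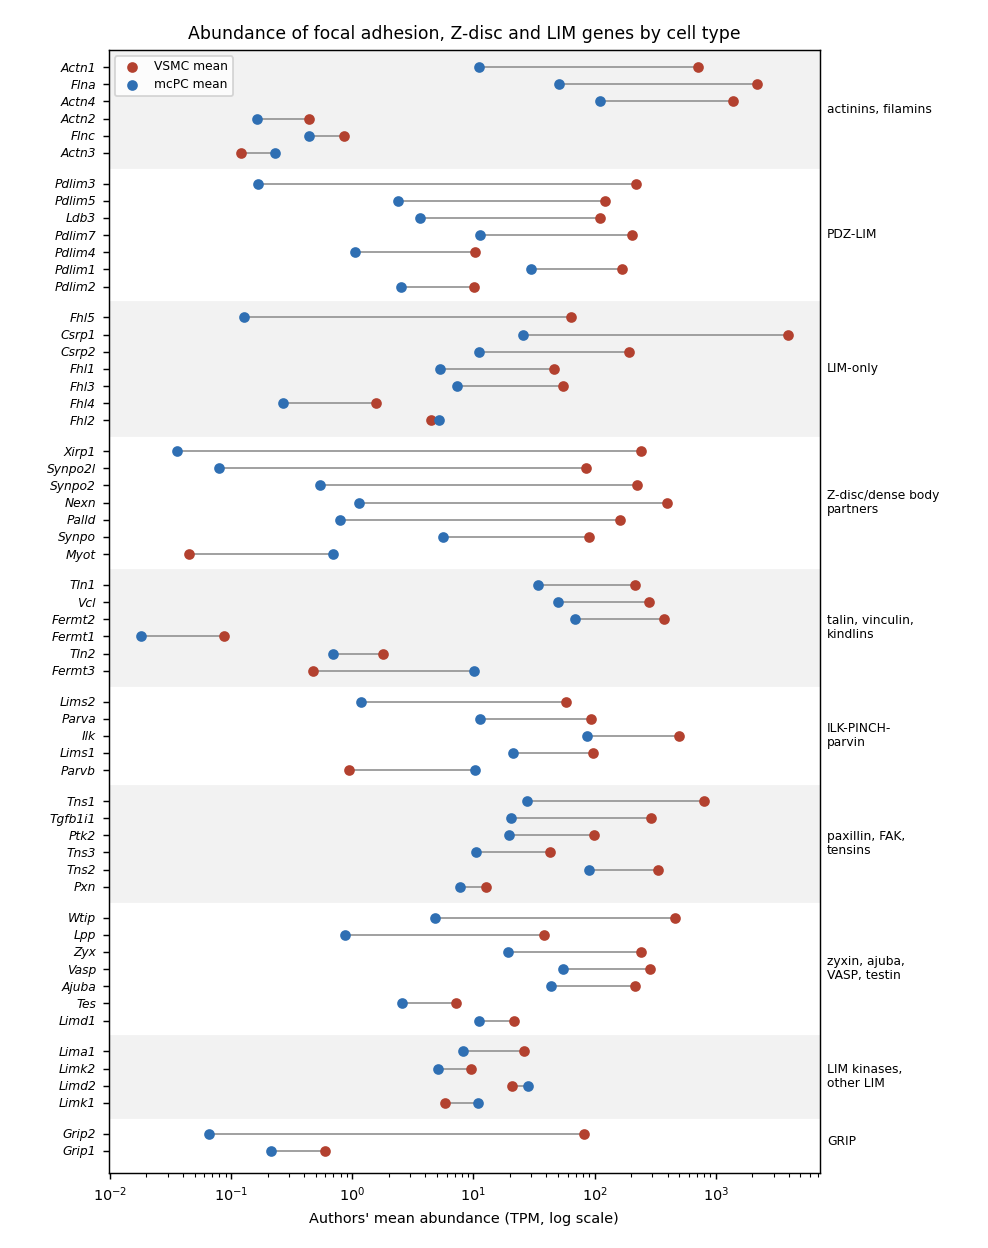
Each row is a gene described in the text, grouped by role, with the authors' mean abundance in VSMCs (red) and in mcPCs (blue) in TPM on a log axis. Most red points lie to the right of the blue ones, 25 of them above 100 TPM, and the longest spans are those of Xirp1 (239.9 and 0.0361 TPM), Pdlim3, Grip2 and Synpo2l.

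The actin crosslinkers were dominated by 3 genes that were all lower in mcPCs. Flna, the main filamin of non-striated cells, stood at 2204 TPM in VSMCs against 50.9 TPM in mcPCs, a log2 ratio of -3.62 [-3.63, -3.61]. Actn1, an alpha-actinin of adhesions and stress fibres, was at 714 TPM in VSMCs against 11.04 TPM in mcPCs with a log2 ratio of -4.20 [-4.23, -4.17]. Actn4, the other non-muscle alpha-actinin, was at 1382 TPM in VSMCs and remained the most abundant member in mcPCs at 110.5 TPM, with a log2 ratio of -1.82 [-1.83, -1.81]. The crosslinkers best known from striated muscle were scarce in both cell types. Flnc was at 0.863 TPM in VSMCs against 0.437 TPM in mcPCs, and Actn2, the cardiac alpha-actinin, at 0.443 and 0.164 TPM. Actn3, the alpha-actinin of fast fibres, was at 0.121 and 0.230 TPM, and its log2 ratio of 2.72 [2.22, 3.26] rested on 42 reads in VSMCs and 138 in mcPCs. Among the alpha-actinins Actn4 held 65.9% of family TPM in VSMCs and 90.6% in mcPCs, and Actn1 34.0% and 9.06%. Such shares do not depend on how the cell types were scaled to each other.

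The partners of alpha-actinin and filamin at Z-discs and dense bodies showed the widest differences, with 6 of 7 at least 4-fold lower in mcPCs and a median log2 ratio of -6.73. Xirp1, which encodes an actin-binding xin repeat protein of striated muscle attachment sites, had the lowest log2 ratio of all 14607 genes, -10.99 [-11.44, -10.57]. It was at 239.9 TPM in VSMCs, more than Tln1, and at 0.0361 TPM in mcPCs, where it had 45 reads over 3 samples. Nexn (nexilin, an actin-binding Z-disc protein) was at 393 and 1.136 TPM with a log2 ratio of -6.73 [-6.87, -6.60]. Palld (palladin, a scaffold for alpha-actinin and VASP) was at 162 and 0.790 TPM with a log2 ratio of -5.91 [-6.04, -5.78]. All 3 were well covered in VSMCs, whereas in mcPCs Nexn had 456 and Palld 487 reads over the 3 samples. The synaptopodins, which bind actin and alpha-actinin, split by paralog. Synpo2 (myopodin) was at 222 TPM in VSMCs against 0.539 TPM in mcPCs, a log2 ratio of -6.92 [-7.06, -6.80]. Synpo2l, its relative best known from heart and skeletal muscle, was at 85.6 and 0.0797 TPM with a log2 ratio of -8.24 [-8.67, -7.84] and 50 mcPC reads. Synpo itself, described in kidney podocytes and dendritic spines, was at 89.2 and 5.61 TPM with a log2 ratio of -2.18 [-2.24, -2.13]. In VSMCs the synaptopodin TPM was 56.0% Synpo2, 22.5% Synpo and 21.6% Synpo2l, and in mcPCs it was 90.1% Synpo. Myot (myotilin, a Z-disc protein related to palladin) went the other way at 0.0449 TPM in VSMCs against 0.687 TPM in mcPCs. Its log2 ratio of 5.74 had the widest counting interval of the group, 4.88 to 6.75, with 10.8 estimated reads in VSMCs.

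Among the 7 PDZ-LIM genes, whose products bind alpha-actinin through the PDZ domain, 5 were at least 2-fold lower in mcPCs, 4 of them at least 4-fold, and 0 were higher. Pdlim3 (ALP, the actinin-associated LIM protein) was at 218 TPM in VSMCs against 0.168 TPM in mcPCs, with a log2 ratio of -8.55 [-8.99, -8.14] on 48 mcPC reads. Pdlim5 (ENH) was at 121 and 2.38 TPM with a log2 ratio of -3.89. Ldb3 (ZASP or cypher, a Z-disc protein of heart and skeletal muscle) was at 111 and 3.60 TPM with a log2 ratio of -3.11. These 3 contrast with Pdlim1 (CLP36), which stood at 168 TPM in VSMCs against 30.0 TPM in mcPCs, a log2 ratio of only -0.66 [-0.69, -0.62]. Pdlim7 (enigma) was in between at 204 and 11.4 TPM with a log2 ratio of -2.36. Pdlim4 (RIL) was at 10.2 and 1.06 TPM with a log2 ratio of -1.47, and Pdlim2 (mystique) at 10.2 and 2.53 TPM with -0.24. The leading member of the family by TPM therefore differed. In VSMCs Pdlim3 held 25.9%, Pdlim7 24.2% and Pdlim1 19.95% of family TPM, whereas in mcPCs Pdlim1 held 58.7% and Pdlim3 0.329%. By normalized counts, which are not corrected for length between genes, Ldb3 led in VSMCs with 31.1% and Pdlim1 in mcPCs with 48.9%.

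The LIM-only proteins, built almost entirely of LIM zinc fingers, gave the most abundant member of all. Csrp1, a cysteine-rich protein that binds zyxin and alpha-actinin, reached 3925 TPM in VSMCs, above the level of 99.8% of genes, and 25.8 TPM in mcPCs, a log2 ratio of -5.44 [-5.47, -5.41]. Csrp2, the second smooth muscle member, was at 191 and 11.2 TPM with a log2 ratio of -2.30 [-2.37, -2.23], so that its share of CSRP TPM was 4.64% in VSMCs and 30.2% in mcPCs. The FHL proteins, with LIM domains in tandem, differed widely among themselves. Fhl5 (ACT, a coactivator known from testis) was at 64.1 TPM in VSMCs against 0.127 TPM in mcPCs, a log2 ratio of -7.19 [-7.78, -6.66] on 28 mcPC reads. Fhl1, a muscle and adhesion protein, was at 46.4 and 5.28 TPM with a log2 ratio of -1.34, and Fhl3 at 55.0 and 7.26 TPM with -1.09. Fhl4 was low in both, at 1.57 and 0.270 TPM. Fhl2, a cofactor of nuclear factors that is abundant in heart, was the single member of this class that was higher in mcPCs, at 4.44 TPM in VSMCs against 5.20 TPM in mcPCs with a log2 ratio of 1.99 [1.83, 2.15]. Its share of FHL TPM was 2.59% in VSMCs and 28.7% in mcPCs, while that of Fhl5 was 37.4% and 0.702%.

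**Figure D2:**
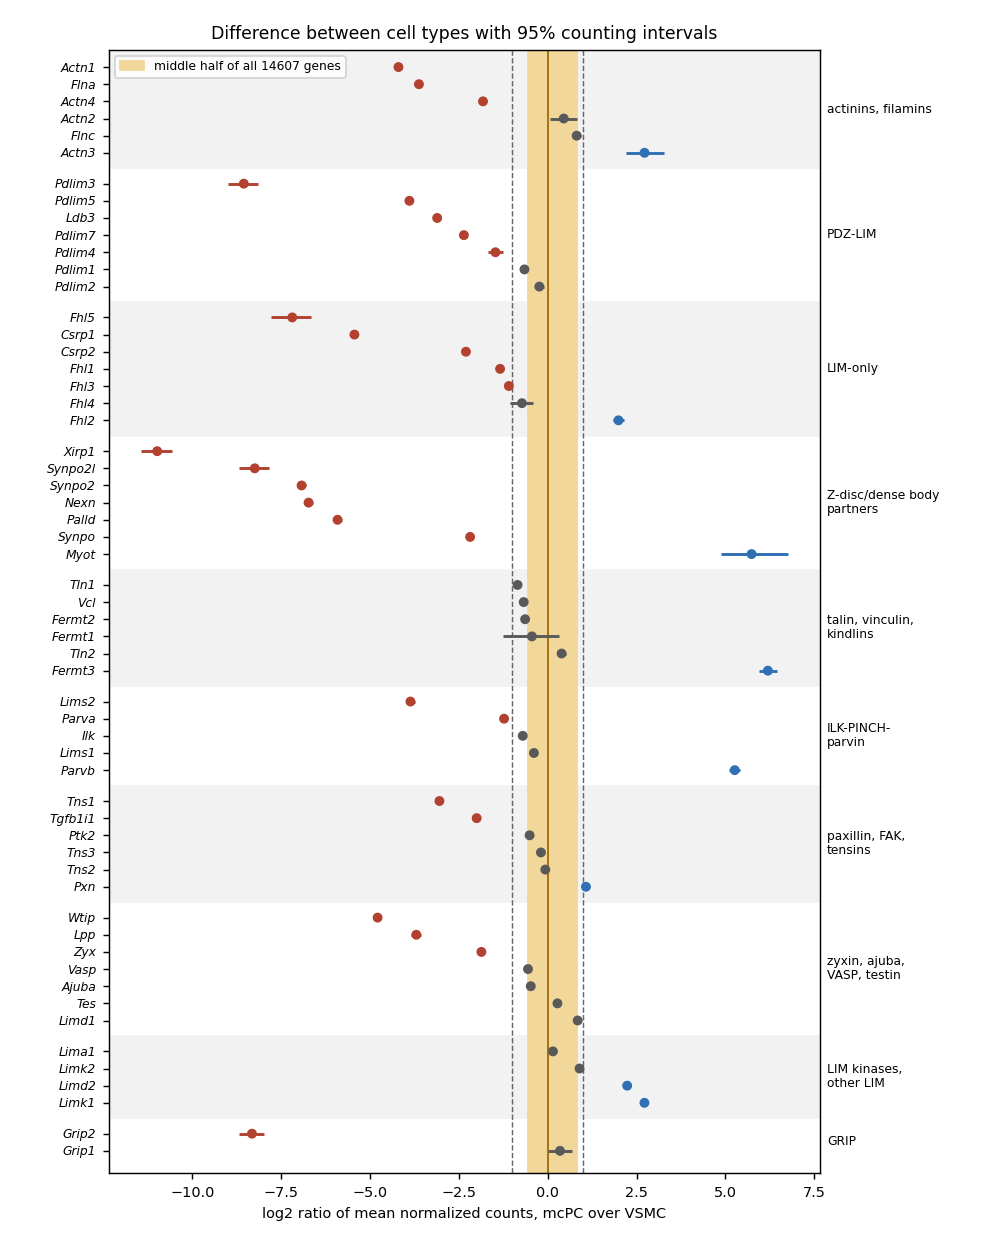
Points are the log2 ratio of mean normalized counts (mcPC over VSMC) of each gene described and bars the 95% counting intervals, coloured red or blue beyond 2-fold (dashed lines), with the middle 50% of all 14607 genes shaded. The Z-disc partners reach -10.99 on the left, whereas talin, vinculin and most kindlins stay inside the dashed lines.

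Promoters of all members with a window, not only of the muscle-type ones, were read for motifs of transcription factors. RefSeq windows (build GRCr8) of 250 bases before to 50 bases after the start were at hand for 48 of the 58 members; Actn4, Fermt2, Lpp, Myot, Parva, Pdlim2, Pdlim3, Ptk2 and Tns1 were among those without one. The CArG box, the site of serum response factor, which is known for its part in smooth muscle gene transcription, was found on either strand in windows of 4 of 48 members (8.33%), and in 1.77% of 27457 genes. They were Ldb3, Fhl1, Fhl2 (with a box at each of 2 starts) and Lima1, whose log2 ratios of -3.11, -1.34, 1.99 and 0.15 lay on both sides of 0. Of the 17 members with a window that were at least 4-fold lower in mcPCs, 1 held a box. The upstream parts are shown because they carry these matches, 5′ to 3′ along the gene, with the CArG box in capitals.
Ldb3 chr16:9924680-9924929 (- strand): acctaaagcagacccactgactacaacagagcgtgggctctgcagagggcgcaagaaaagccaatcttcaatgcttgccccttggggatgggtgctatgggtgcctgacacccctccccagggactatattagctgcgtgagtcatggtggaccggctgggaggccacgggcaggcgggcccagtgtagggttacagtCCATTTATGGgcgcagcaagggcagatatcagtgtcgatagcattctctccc
Fhl1 chrX:139638246-139638495 (+ strand): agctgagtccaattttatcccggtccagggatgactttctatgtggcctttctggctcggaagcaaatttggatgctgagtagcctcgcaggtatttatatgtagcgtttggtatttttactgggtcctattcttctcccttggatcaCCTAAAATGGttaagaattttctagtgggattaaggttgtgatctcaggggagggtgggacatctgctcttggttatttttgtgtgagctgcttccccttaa
Fhl2 chr9:52923327-52923576 (- strand): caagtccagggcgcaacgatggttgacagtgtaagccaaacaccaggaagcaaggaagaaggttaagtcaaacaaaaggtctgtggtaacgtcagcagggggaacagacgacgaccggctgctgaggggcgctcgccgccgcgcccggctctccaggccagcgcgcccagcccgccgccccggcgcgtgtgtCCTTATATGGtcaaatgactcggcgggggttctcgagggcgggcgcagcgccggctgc
Fhl2 chr9:52954541-52954790 (- strand): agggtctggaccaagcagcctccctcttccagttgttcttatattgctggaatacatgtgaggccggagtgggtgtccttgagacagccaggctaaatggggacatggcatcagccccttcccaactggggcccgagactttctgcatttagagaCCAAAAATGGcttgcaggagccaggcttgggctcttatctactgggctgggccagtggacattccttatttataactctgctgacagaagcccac
Lima1 chr7:132880344-132880593 (- strand): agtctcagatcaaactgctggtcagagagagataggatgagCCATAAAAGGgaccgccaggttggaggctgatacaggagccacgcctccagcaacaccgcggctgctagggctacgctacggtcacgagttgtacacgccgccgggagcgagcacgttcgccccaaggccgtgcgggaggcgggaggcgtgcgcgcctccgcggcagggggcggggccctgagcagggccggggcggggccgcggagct
Counted from the start, the box lay at bases -52 to -43 in Ldb3 and -58 to -49 in the first Fhl2 window, and farther upstream in Fhl1 (bases -102 to -93), the second Fhl2 window (bases -95 to -86) and Lima1 (bases -209 to -200).

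The other motifs were counted in the same way. CATTCC, the core bound by TEAD factors, was in windows of 11 members (22.9%) and of 15.03% of genes. TGGGAA, the core bound by RBPJ, the nuclear partner of Notch, was in 12 (25%) and 26.7%. CANNTG, the E-box, was in 22 (45.8%) and 73.2%. In Vcl a TGGGAA at bases -169 to -164 overlaps a CATTCC of the opposite strand at -167 to -162. A window of Xirp1, which had several, is shown as that of the gene with the lowest log2 ratio. No window of Xirp1 held a CArG box, and the TGGGAA of the window shown is in capitals.
Xirp1 chr8:128635004-128635253 (- strand): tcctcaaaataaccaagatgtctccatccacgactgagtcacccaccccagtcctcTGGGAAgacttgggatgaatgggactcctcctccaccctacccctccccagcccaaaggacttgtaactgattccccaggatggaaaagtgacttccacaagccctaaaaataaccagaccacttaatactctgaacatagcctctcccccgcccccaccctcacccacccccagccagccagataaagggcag
A match is a description of letters in the window, and no occupancy was measured.

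The genes that act at the integrin tail lay closer to equality than the Z-disc and dense body partners. Of talins, vinculin and kindlins 0 of 6 were at least 2-fold lower in mcPCs, and the median log2 ratio was -0.54. With 13.9% of all genes lower by that size, a count of 0 among 6 is near the share of all genes. Fermt2 (kindlin-2, the kindlin of most tissues) was at 377 TPM in VSMCs against 68.7 TPM in mcPCs, a log2 ratio of -0.64 [-0.65, -0.62]. Vcl (vinculin, which binds talin and actin under load) was at 281 and 49.6 TPM with a log2 ratio of -0.68 [-0.69, -0.66]. Tln1 (talin 1, the integrin activator) was at 215 and 34.1 TPM with a log2 ratio of -0.85 [-0.86, -0.84]. These genes were thus among the more abundant members in mcPCs as well. On the ratio of mean TPM they lay between -2.66 and -2.45, beside a median gene of -1.72. Tln2 was low in both cell types, at 1.79 and 0.691 TPM with a log2 ratio of 0.39, and Fermt1 (kindlin-1, of epithelia) lower still at 0.0871 and 0.0181 TPM, where 20.8 estimated reads in mcPCs gave an interval of -1.25 to 0.31. Fermt3 (kindlin-3, known as the kindlin of blood cells) had the highest log2 ratio of the 58 genes, 6.19 [5.95, 6.45], at 0.477 TPM in VSMCs against 10.1 TPM in mcPCs. It took 0.126% of kindlin TPM in VSMCs and 12.8% in mcPCs.

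In the ILK-PINCH-parvin complex 2 of 5 members were at least 2-fold lower in mcPCs and 1 was higher, and paralogs differed from each other. Ilk, the integrin-linked pseudokinase, was at 499 TPM in VSMCs and at 87.01 TPM in mcPCs, where it followed Actn4 and Tns2 in abundance, a log2 ratio of -0.70 [-0.72, -0.68]. Lims1 (PINCH1, the LIM adaptor that binds ILK) was at 97.1 and 21.1 TPM with a log2 ratio of -0.39, whereas Lims2 (PINCH2) was at 58.02 and 1.17 TPM with -3.86 [-4.001, -3.73]. PINCH TPM was therefore 37.4% Lims2 in VSMCs and 5.26% in mcPCs. The parvins, which join ILK to actin, lay on opposite sides of equality. Parva was at 93.8 TPM in VSMCs against 11.3 TPM in mcPCs with a log2 ratio of -1.23 [-1.26, -1.20], and Parvb was at 0.948 and 10.3 TPM with 5.26 [5.11, 5.42]. Parvb made up 1% of parvin TPM in VSMCs and 47.8% in mcPCs. Its mean effective length, which reflects the mix of transcripts counted, was 3163 bases in VSMCs and 2345 bases in mcPCs, a ratio of 0.742.

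Effective lengths of the other members differed little. Only Parvb, Tln2 (6120 and 5319 bases) and Csrp2 (705 and 811 bases) differed by over 10% between cell types, 5.17% of members against 4.38% of all genes, and 34 members (58.6%) had equal lengths in both, against 73.5% of all genes. Which transcripts account for the Parvb difference was not analysed here.

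Of the paxillin family, FAK and tensins 2 of 6 were at least 2-fold lower and 1 was higher. Tns1, a tensin that links integrin tails to actin, was the fourth most abundant member in VSMCs at 797 TPM and stood at 27.6 TPM in mcPCs, a log2 ratio of -3.05 [-3.06, -3.03]. Tns2 was nearly level by normalized counts, at 332 TPM in VSMCs against 90.6 TPM in mcPCs with a log2 ratio of -0.07 [-0.08, -0.06], and Tns3 followed it at 42.6 and 10.5 TPM with -0.19. The tensin TPM was thus 68.0% Tns1 and 28.3% Tns2 in VSMCs, and 21.4% and 70.4% in mcPCs. Tgfb1i1 (Hic-5, the paxillin relative of smooth muscle) was at 290.5 and 20.4 TPM with a log2 ratio of -1.999 [-2.03, -1.97], just inside 4-fold. Pxn (paxillin, an adhesion scaffold) was at 12.7 and 7.73 TPM with a log2 ratio of 1.08 [1.02, 1.13]. On the ratio of mean TPM Pxn was at -0.70, beside a median gene of -1.72, and relative to the median gene it was at 1.17. The share of paxillin in the pair was 4.17% in VSMCs and 27.5% in mcPCs by TPM, and 7.75% and 41.4% by normalized counts. Ptk2 (FAK, the focal adhesion kinase) was at 98.4 and 19.6 TPM with a log2 ratio of -0.51 [-0.54, -0.48].

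Among zyxin, its relatives and their partners 3 of 7 were at least 2-fold lower in mcPCs and 0 were higher. Wtip, an ajuba family LIM protein, was the seventh most abundant member in VSMCs at 465 TPM and stood at 4.81 TPM in mcPCs, a log2 ratio of -4.79 [-4.88, -4.70]. Its relative Ajuba, known like it for binding LATS kinases of the Hippo pathway, was at 215 and 43.5 TPM with a log2 ratio of -0.48 [-0.50, -0.46]. Limd1, the remaining member of that family, was at 21.7 and 11.1 TPM with a log2 ratio of 0.84 [0.80, 0.89]. Wtip accordingly held 66.3% of ajuba family TPM in VSMCs and 8.09% in mcPCs, where Ajuba held 73.2%. By normalized counts, without regard to length, Ajuba led in both cell types. Zyx (zyxin, a sensor of tension on actin) was at 243 and 19.1 TPM with a log2 ratio of -1.87 [-1.90, -1.84]. Lpp, the lipoma preferred partner and a zyxin relative of smooth muscle, was at 38.1 and 0.863 TPM with -3.70 [-3.85, -3.55]. Vasp, an actin elongation factor that zyxin recruits, was at 285 and 55.2 TPM with -0.56, and Tes (testin) at 7.21 and 2.57 TPM with 0.27.

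By normalized counts none of the 4 LIM kinases and other LIM proteins was lower in mcPCs by 2-fold and 2 were higher. On the ratio of mean TPM Lima1 was at -1.66, beside a median gene of -1.72. Limk1, a kinase that inactivates cofilin, was at 5.78 TPM in VSMCs against 10.8 TPM in mcPCs, a log2 ratio of 2.72 [2.65, 2.79], and Limk2 at 9.52 and 5.11 TPM with 0.90 [0.83, 0.96]. The larger share of LIM kinase TPM was that of Limk2 in VSMCs (62.2%) and that of Limk1 in mcPCs (68.0%). Limd2, a small LIM protein reported to bind ILK, was at 20.7 and 28.5 TPM with a log2 ratio of 2.24 [2.17, 2.30]. Lima1 (EPLIN, an actin bundling protein) was at 26.1 and 8.20 TPM with 0.15. Of the GRIP scaffolds, Grip2 was at 82.3 TPM in VSMCs against 0.0657 TPM in mcPCs with a log2 ratio of -8.32 [-8.68, -7.99] on 71 mcPC reads, and Grip1 was at 0.5996 and 0.212 TPM with 0.35 [0.01, 0.68].

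**Figure D3:**
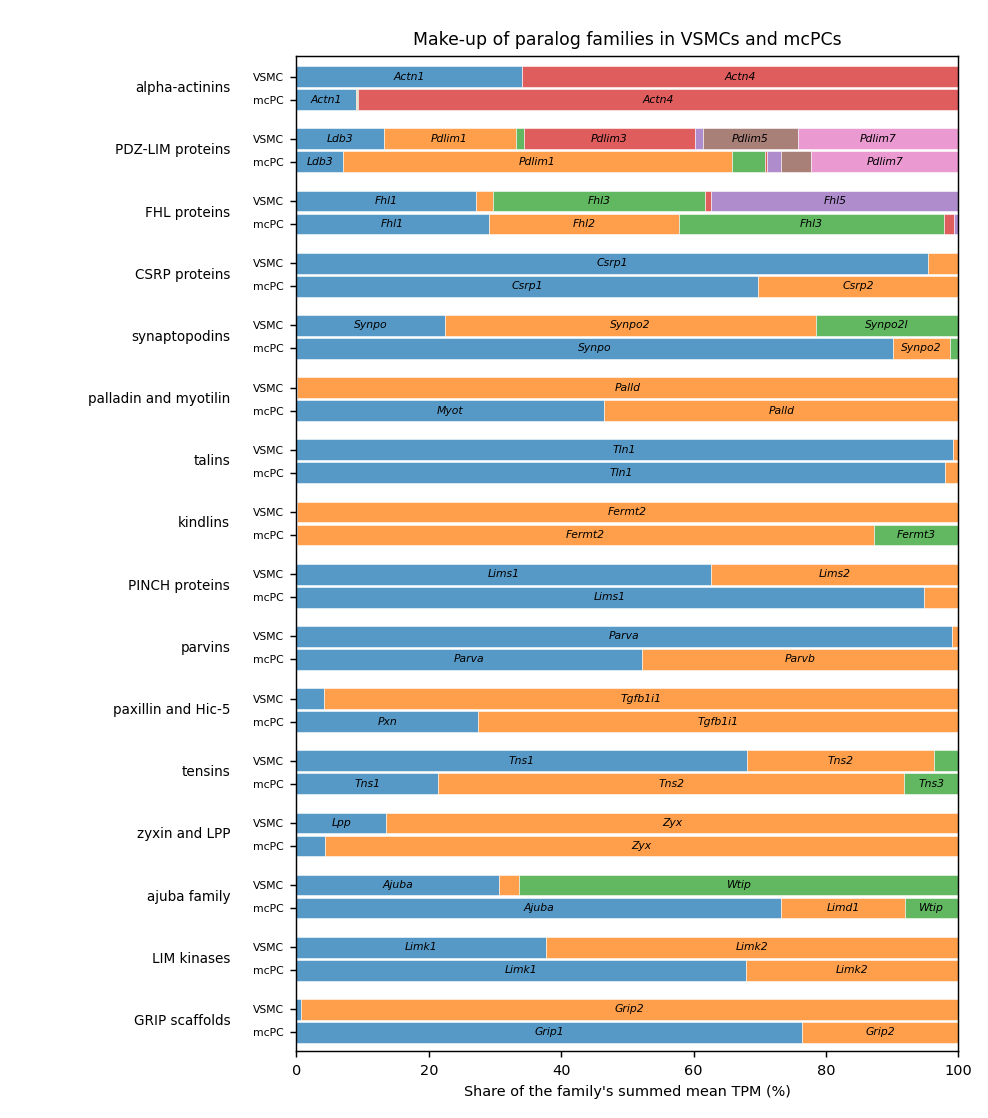
Each pair of bars splits the summed mean TPM of a paralog family into its members, in percent, for VSMCs (upper) and mcPCs (lower). The leading member differs in 7 families, among them the tensins (Tns1 68.0% in VSMCs, Tns2 70.4% in mcPCs) and the synaptopodins (Synpo 22.5% and 90.1%).

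Over the 17 paralog families the leading member by TPM was the same in both cell types in 10 and differed in 7, the PDZ-LIM proteins, FHL proteins, synaptopodins, tensins, ajuba family, LIM kinases and GRIP scaffolds. By normalized counts 5 differed, since the FHL and ajuba families then kept their leader. Reads that fit more than one paralog are divided between them by the estimation, so a small share of one paralog beside an abundant one is uncertain.

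The 8 members that were at least 2-fold higher in mcPCs (Fermt3, Myot, Parvb, Actn3, Limk1, Limd2, Fhl2 and Pxn) lay between 0.230 and 28.5 TPM there. On the ratio of mean TPM, where the median gene was at -1.72, only Fermt3 (4.14), Parvb (3.32) and Myot (2.44) were higher by 2-fold. Relative to the median gene, 10 members were at least 2-fold higher, and the share of all genes on that scale was not computed. Markers of other cells were higher in the same samples. Of 14 leukocyte markers 8 were listed and all 8 were at least 4-fold higher in mcPCs, with single levels of 0.0533 to 1.09 TPM in VSMCs and 3.94 to 50.5 TPM in mcPCs and a summed level of 2.68 and 171 TPM. Ptprc, which encodes CD45, was at 0.0659 and 15.1 TPM. The other 6 (Itgam, Cd74, Tyrobp, Cd3e, Cd79b and S100a8) had no row. Of 14 endothelial markers 12 were listed and 9 were at least 4-fold higher, Cldn5 for instance at 0.643 and 15.4 TPM. The other 3 lay within 2-fold by normalized counts. They were Esam (487 and 184 TPM, log2 ratio 0.43), Ocln (37.7 and 8.45 TPM, -0.33) and Flt1 (8.20 and 1.41 TPM, -0.78). The summed level of the 12 was 536 TPM in VSMCs against 224 TPM in mcPCs, most of it from Esam. Of 8 platelet markers 3 were listed, with a summed level of 6.49 and 4.32 TPM, and by normalized counts 2 of the 3, Itga2b (1.55) and Itgb3 (1.18), were at least 2-fold higher in mcPCs. Astrocyte markers (4 of 5 listed) summed to 0.582 and 15.7 TPM, and neuron markers (4 of 5) to 1.77 and 25.1 TPM, and all 4 of each list were at least 4-fold higher by normalized counts. Oligodendrocyte markers (4 of 5) summed to 6.62 and 5.20 TPM and fibroblast markers (5 of 6) to 139 and 58.2 TPM, yet by normalized counts 3 of 4 and 4 of 5 were at least 2-fold higher in mcPCs. The part of these cells in the levels of Fermt3, Parvb, Limd2, Limk1 and the other members was not tested.

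Genes of the same structures that the symbols did not cover were taken from lists of 71 genes, of which 62 were listed. Of these 28 were at least 2-fold lower in mcPCs and 8 at least 2-fold higher, where 13.9% of all 14607 genes were lower and 22.0% higher by that size; the same shares apply to the list counts that follow. The Z-disc genes again showed the widest differences, with 12 of 17 at least 2-fold lower, 10 of them at least 4-fold, 1 higher and a median log2 ratio of -2.48. Synm (synemin, an intermediate filament protein of Z-discs) was at 268 and 5.35 TPM with -3.70, and Smtn (smoothelin, of contractile smooth muscle) at 410.0 and 20.9 TPM with -2.48. The actin capping genes Capza1, Capza2 and Capzb lay between -0.67 and 0.19. Neb (nebulin) was the single one higher in mcPCs, at 0.3503 and 0.889 TPM with 3.16. Ttn, Tcap, Myoz1, Myoz2, Myoz3 and Mypn had no row.

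The adhesion adaptors had a median log2 ratio of -0.25, and 8 of 23 were at least 2-fold lower and 4 higher. Kank1 and Kank2, which bind talin and anchor microtubule capture sites next to adhesions, were at 325 and 1.41 TPM (-6.02) and at 262 and 14.3 TPM (-2.38). Sorbs2, a vinculin-binding adaptor, had a log2 ratio of -4.44, Arhgef7 (beta-PIX, a Rac exchange factor) of -3.88 and Enah (MENA, a VASP relative) of -2.85. Evl, another member of that VASP family, was higher in mcPCs with 1.44. The kinases Ptk2b (PYK2, the relative of FAK), Pak1 and Src had log2 ratios of 5.31, 5.49 and 1.34, with Ptk2b at 0.469 TPM in VSMCs against 5.53 TPM in mcPCs. Rsu1, which binds PINCH1, was at 154 and 34.0 TPM with -0.35, near Ilk and Lims1. Among other LIM and actin-linker genes 8 of 22 were at least 2-fold lower and 3 higher, with a median of -0.52. Crip1, a small LIM-only protein, was at 9933 TPM in VSMCs, above all 58 members, and 103 TPM in mcPCs with a log2 ratio of -4.81. Cfl1 (cofilin, whose phosphorylation by LIM kinases blocks actin severing) was at 836 and 179.5 TPM with -0.40, and Nebl (nebulette) was higher in mcPCs with 3.08 on 88 VSMC reads.

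**Figure D4:**
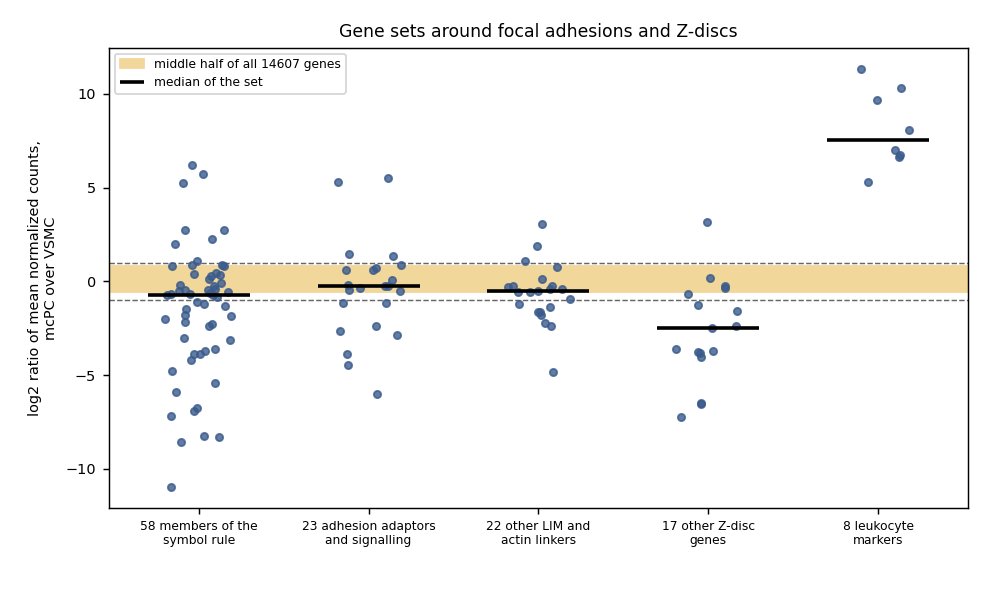
Points are the log2 ratios of mean normalized counts (mcPC over VSMC) of the genes in each set, with the set's median as a bar and the middle 50% of all 14607 genes shaded. The other Z-disc genes have the lowest median (-2.48), and all 8 leukocyte markers lie above the band. The median of the adhesion adaptors (-0.25) lies inside the band, but their points spread from -6.02 to 5.49.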

How the data were processed

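Counts, abundances and normalized values of 6 samples (3 of VSMCs and 3 of mcPCs, libraries sequenced in 4 runs each) were available as 1 table of means per cell type. The authors trimmed and filtered reads with Eoulsan, estimated TPM values and estimated counts with Salmon (0.8.0 in the submitters' processing notes) against rat cDNA sequences (build Rnor_6.0), collapsed transcripts to genes by tximport and normalized counts with DESeq2. Genes needed 1 read or more in every sample to be listed. The deposited normalized counts are signal values divided by normalization factors. The authors' estimated counts are means per run (69.8% and 71.5% were whole multiples of 1 read over 12 runs, within 0.01). They were multiplied by 12 to give the reads of a cell type. Effective lengths are the authors' means in bases. Their fold changes, standard errors and p-values for mcPCs against VSMCs, also in the table, were not used.

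Log2 ratios of mean normalized counts were computed without a pseudocount. Exact intervals came from the reads of both cell types. No test was possible on means, and past 2-fold or 4-fold describes size only. Alternatives were TPM ratios (pseudocounts of 0.1 and 1, and relative to the median of genes at or above 0.8 TPM in VSMCs), counts scaled to equal totals with and without the erythrocyte list, a pseudocount of 10, and filters at 0.8 TPM in VSMCs or 5 TPM in either cell type. The text names every member at least 2-fold different or above 100 TPM and each paralog set, except that some genes are not reported here. The paralog families follow the symbols. Members, roles and lists were chosen with earlier results of these data known. Markers were matched by symbol. Promoter motifs were searched on both strands in RefSeq windows of GRCr8, another build than that of the counts. Members were matched to windows by Entrez gene identifier or by symbol. Log2 ratios of reads and their counting intervals were tested on simulated reads that varied by counting error alone. The normalized counts behind the reported ratios and the other steps were not tested. The scripts used numpy 2.4.6, scipy 1.17.1, pandas 2.3.3 and matplotlib 3.10.9 in Python 3.11.15.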

Additional observations from a re-analysis of the deposited data

How the results depend on the processing

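Means per cell type set the main limit, since no difference can be held against the spread between isolations and no sample could be left out in turn. No paired analysis was possible because the table holds no values per isolation. Counting error was small, with a median interval width of 0.13 on the log2 scale, and 8 members had under 100 reads in either cell type. On TPM ratios with pseudocounts of 0.1 and 1 the members at least 2-fold lower were 45 and 42 in place of 27, those at least 4-fold lower 38 and 36 in place of 20, those at least 2-fold higher 3 and 2 in place of 8, and those at least 4-fold higher 3 and 2 in place of 6. All genes moved on these ratios as well, with medians of -1.72 and -1.43. With the pseudocount of 0.1, 72.3% of all genes were at least 2-fold lower and 7.00% higher. Shares of all genes at 4-fold on TPM ratios, with the pseudocount of 1, under the other alternative scalings or under the filters were not computed. With the filter at 0.8 TPM in VSMCs 5 were 2-fold and 3 were 4-fold higher. That filter acts on the VSMC level alone, so genes low in VSMCs and higher in mcPCs are removed by construction. The median log2 ratio of all genes that pass it was -0.11. The median log2 ratio of -0.71 became -2.51 and -2.46 on TPM ratios, -0.63 relative to the median gene, -1.31 with counts scaled to the same total, -1.16 with the filter at 0.8 TPM and -1.28 with that at 5 TPM. Minus the median of all genes, it stayed between -1.03 and -0.70 under the 6 other scalings. Pxn turned negative on TPM ratios, at -0.70 and -0.64, but was at 1.17 relative to the median gene. Part of the TPM shift arises by construction, since the erythrocyte share enters the mcPC total, and the cause of the rest was not tested. Leaving out the erythrocyte list changed the summed TPM of members from 15249 to 15362 in VSMCs and from 954 to 2118 in mcPCs. The sign of 10 members changed on either TPM ratio, of 5 with counts scaled to the same total, of 2 relative to the median gene and of 0 under the other scalings.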

Other observations

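Chaperones that attend the same structures were among the Z-disc genes with the lowest log2 ratios, and were singled out after their values were seen. Hspb7, a small heat shock protein that binds filamin C, was at 50.1 TPM in VSMCs and 0.148 TPM in mcPCs, a log2 ratio of mean normalized counts of -6.56 on 61 mcPC reads. Cryab (alpha-B crystallin, a small heat shock protein of Z-discs) was at 168 and 0.515 TPM with -6.48 on 122 mcPC reads. Hspb8 and Bag3, partners in the chaperone-assisted autophagy of damaged filamin, were at 164 and 3.39 TPM (-3.79) and at 241 and 5.74 TPM (-3.60). Synpo2, a member that is known to act with Bag3 in that process, had -6.92, and Flna, its client, had -3.62. Ankrd1, a stretch-responsive ankyrin repeat protein, was at 10.1 and 0.170 TPM with -4.05 on 59 mcPC reads.

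Transcripts of some striated muscle Z-disc proteins were therefore listed at high levels in VSMCs (Xirp1, Synpo2l and Ldb3 at 239.9, 85.6 and 111 TPM). Those of Actn2, Flnc and Myot, whose proteins share that tissue, were at 0.443, 0.863 and 0.0449 TPM in VSMCs.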
